A study of Mus musculus with 16 samples.

Results

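The 5 genes described here form the ectodysplasin branch of the tumour necrosis factor (TNF) family in the mouse. They are the ligand gene Eda, its receptors Edar and Eda2r, the adapter gene Edaradd and the related receptor gene Tnfrsf19. They were picked by gene symbol from the 53800 genes of the count table, with earlier results of these data known. All 5 passed the filter on low counts that left 15501 genes for testing. Each was followed in 16 RNA-seq libraries in 8 groups of 2. The groups were ectoderm and mesoderm of the distal 150 µm of B6 mouse forelimb buds on 4 successive days of gestation, from E9.5 up to E12.5, with no treatment or mutation in any group. Trypsin on ice and forceps parted the layers, and the ectoderm and mesoderm libraries of 1 stage that carry 1 replicate number share their embryos. Replicates 1 and 2 were biological replicates, and their RNA was purified with different kits, RNeasy Plus Mini for the first and RNeasy Mini for the second. Every library is a whole tissue layer, so the mesoderm holds mesenchyme, vessels and blood together.

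Ectodysplasin is a membrane-bound ligand that is cut free by furin-like proteases. Its long form binds Edar, which recruits the adapter Edaradd and, through Traf and Tab proteins and the IkB kinase complex, activates NF-kB. A form that lacks a short stretch of the receptor-binding domain binds Eda2r in place of Edar. Tnfrsf19, also called Troy, resembles Edar and Eda2r but has no settled ligand, and is known as a target of WNT signalling. In mouse skin the pathway is known for the placodes of hair, teeth and glands, where Edar and Edaradd mark the epithelium.

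In mm10, with gene models of GENCODE M21, Edar (ENSMUSG00000003227) lies on the minus strand at chr10:58600789-58675654. Edaradd (ENSMUSG00000095105) lies on the minus strand at chr13:12472632-12520438. Tnfrsf19 (ENSMUSG00000060548) lies on the minus strand at chr14:60963875-61046490. The 2 X-linked members are Eda (ENSMUSG00000059327), on the plus strand at chrX:99975606-100400762, and Eda2r (ENSMUSG00000034457), on the minus strand at chrX:97333840-97377216. No exon of another annotated gene overlapped an exon of any of the 5.

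Total counts ran from 10005867 to 30438214 per library. The 12 markers of surface epithelium summed to between 2412 and 7098 CPM (counts per 1e+06 counts of a library) in the 8 ectoderm libraries and to between 7.56 and 87.1 CPM in the 8 mesoderm libraries. The 10 markers of limb mesenchyme summed to between 2017 and 6712 CPM in mesoderm. They were not absent from ectoderm, where they summed to between 584 and 2454 CPM. Ectoderm E11.5 replicate 1 stood apart, with a median mesenchyme marker at 39.5% of its level in mesoderm of the same embryos, against 4.06 to 21.8% in the other ectoderm libraries. The part of these markers in the results below was not tested. Where the call of a gene given below, or a list's count of calls, changes without that library, both values are given.

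**Figure D1:**
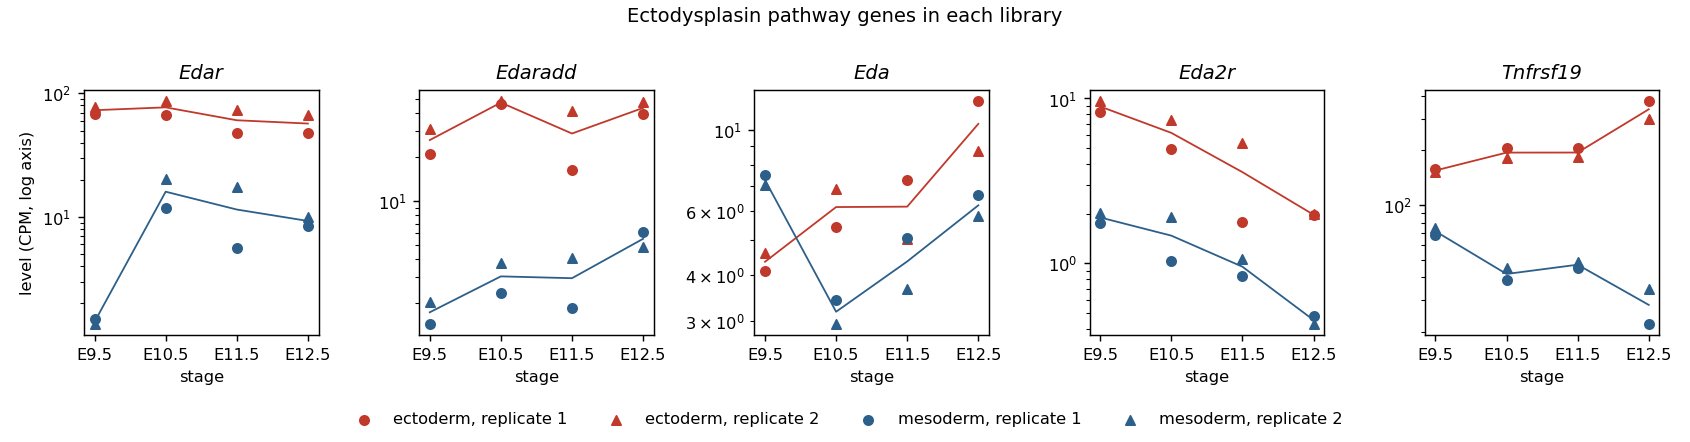
Level of each of the 5 genes (CPM, log axis) at each stage, with 1 point per library and a line through the group means, ectoderm in red and mesoderm in blue, replicate 1 as circles and replicate 2 as triangles. Edar, Edaradd and Tnfrsf19 lie higher in all 8 ectoderm libraries than in any mesoderm library, and the Eda points of the layers intermingle.

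Edar and its adapter Edaradd were higher in ectoderm at all 4 stages. Averaged over the stages, Edar was higher by 3.25 log2 (SE 0.24, 9.49-fold, adjusted p = 5.13e-07) and Edaradd by 3.54 log2 (SE 0.25, 11.7-fold, adjusted p = 3.07e-07). Adjusted p-values come from edgeR's quasi-likelihood test, adjusted over all tested genes by the method of Benjamini and Hochberg. Eda2r and Tnfrsf19 also passed this test in the same direction, so 4 of the 5 genes were called higher in ectoderm, against 24.3% of all tested genes. In tissue libraries, fewer cells of a type and less RNA per cell cannot be told apart. Without ectoderm E11.5 replicate 1 the average differences were 3.26 log2 for Edar and 3.62 for Edaradd.

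Edar, the receptor of the long ligand form, stood at 68.3 and 78.0 CPM in the replicate 1 and 2 ectoderm libraries of E9.5. It stood at 67.5 and 86.8 CPM at E10.5, at 47.8 and 73.5 CPM at E11.5, and at 47.5 and 66.5 CPM at E12.5. The ectoderm ranges of neighbouring stages overlapped at each step. Both E12.5 libraries lay below both of E9.5, and the change was −0.36 log2 (SE 0.43, 95% interval −1.30 to 0.58, adjusted p = 0.678). In mesoderm Edar stood at 1.48 and 1.35 CPM at E9.5, then at 11.8 and 20.2 CPM at E10.5, 5.59 and 17.4 CPM at E11.5, and 8.50 and 10.1 CPM at E12.5. All 6 later mesoderm libraries were above both of E9.5. In mesoderm Edar rose from E9.5 to E10.5 by 3.48 log2 (SE 0.51, 11.2-fold, adjusted p = 0.00165), and was higher at E12.5 than at E9.5 by 2.70 log2 (SE 0.51, adjusted p = 0.00233). No later step of 1 day passed the test.

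The layer difference of Edar therefore had its highest value at E9.5, at 5.68 log2 (SE 0.55, 51.3-fold), and lay between 2.275 and 2.62 log2 at the 3 later stages. The E9.5-to-E12.5 change in ectoderm minus that in mesoderm was −3.06 log2 (SE 0.66, adjusted p = 0.0156). This call was lost, with adjusted p between 0.0505 and 0.0678, without ectoderm E9.5 replicate 2 (−2.96), ectoderm E12.5 replicate 1 (−2.84), mesoderm E9.5 replicate 1 (−3.13) or mesoderm E9.5 replicate 2 (−3.00).

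**Figure D2:**
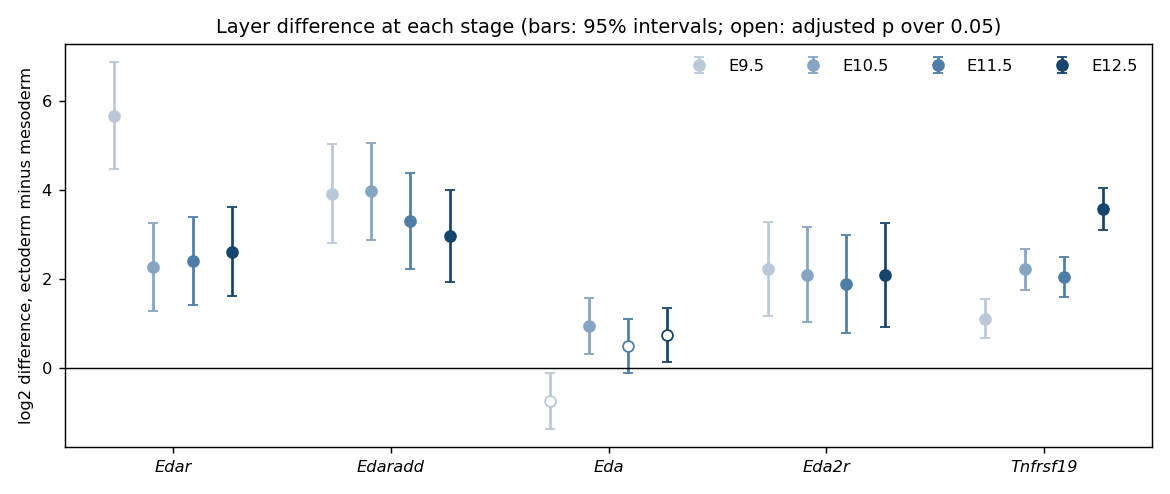
Log2 difference of ectoderm minus mesoderm for each gene at each stage, points from the edgeR fit with 95% intervals, filled where the adjusted p is under 0.05. Edar falls from 5.68 at E9.5 to 2.275 at E10.5, Tnfrsf19 goes from 1.11 to 3.58, and Eda2r stays between 1.89 and 2.24.

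The mesoderm level of Edar was set beside epithelial markers of the same library. As a percent of ectoderm of the same embryos, mesoderm Edar was 2.17 and 1.73% at E9.5 and between 11.7 and 23.7% in the 6 later pairs. The median surface epithelium marker was between 0.11 and 2.28% in the 8 pairs, and the highest single marker of the 12 was at most 7.13%. In the 6 pairs of E10.5 and later, Edar lay above the highest epithelium marker, whose largest value there was 5.21%. Trp63, the p63 factor of the basal epithelium, stood between 0.85 and 9.71 CPM in the mesoderm libraries, against 428 to 744 CPM in ectoderm. In mesoderm it was at 1.29 and 0.86 CPM at E9.5, stood at 6.59 and 3.55 CPM at E10.5 and at 9.71 and 6.33 CPM at E11.5, and was back at 1.35 and 0.85 CPM at E12.5. The median epithelium marker went the same way in replicate 1, from 0.52% at E9.5 through 1.32% and 2.28% to 0.28% at E12.5. In replicate 2 it was 0.80%, 0.73%, 1.19% and 0.11% in turn. At E12.5, where Trp63 and this median were at or near their E9.5 values or below them, mesoderm Edar was at 17.9 and 15.1% of ectoderm. The part of ectoderm cells in the mesoderm level of Edar was not tested.

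**Figure D3:**
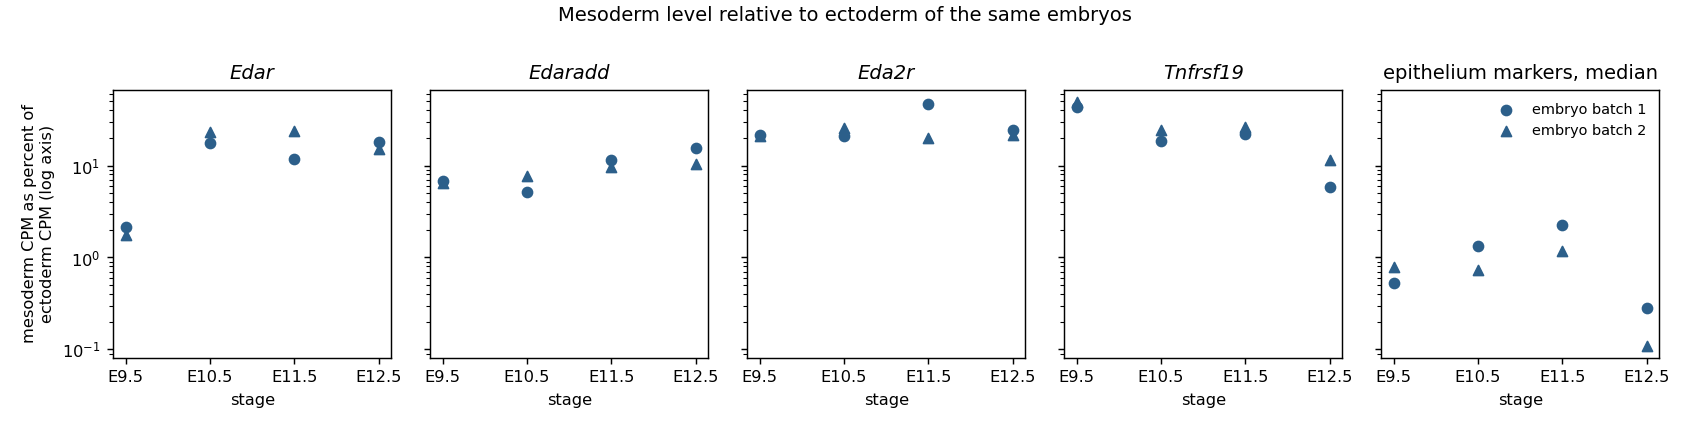
Mesoderm CPM as a percent of ectoderm CPM of the same embryo batch (log axis) at each stage for Edar, Edaradd, Eda2r, Tnfrsf19 and the median of 12 surface epithelium markers, with 1 point per batch. Edar goes from 2.17 and 1.73% at E9.5 to between 11.7 and 23.7% later, and the epithelium median stays at or under 2.28%.

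Edaradd, the adapter that links Edar to Traf proteins, stood at 20.99 and 31.3 CPM in ectoderm of E9.5, 46.0 and 48.4 CPM at E10.5, 16.4 and 41.6 CPM at E11.5, and 39.3 and 47.5 CPM at E12.5. The low value of E11.5 belongs to the library that stood apart. The ectoderm change from E9.5 to E12.5 was 0.73 log2 (SE 0.43, 95% interval −0.23 to 1.68, adjusted p = 0.322), although both E12.5 libraries lay above both of E9.5. In mesoderm Edaradd stood at 1.43 and 2.03 CPM at E9.5, 2.35 and 3.75 CPM at E10.5, 1.86 and 4.06 CPM at E11.5, and 6.14 and 4.88 CPM at E12.5. Both E12.5 libraries were above all 6 earlier ones. The mesoderm rise from E9.5 to E12.5 was 1.68 log2 (SE 0.49, 3.21-fold, adjusted p = 0.0238). It was no longer called without mesoderm E9.5 replicate 1 (1.44, adjusted p = 0.152), mesoderm E9.5 replicate 2 (1.94, adjusted p = 0.0605) or mesoderm E12.5 replicate 1 (1.501, adjusted p = 0.108).

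The mesoderm percent of Edaradd was between 5.10 and 7.75% at E9.5 and E10.5 and between 9.76 and 15.6% at E11.5 and E12.5. Its ectoderm change minus its mesoderm change was −0.95 log2 (SE 0.65, adjusted p = 0.499), and with embryo batch as a block it was −0.95 with an adjusted p of 0.0378. Edar and Edaradd had a Pearson r of 0.907 in log2 CPM over the 16 libraries, the highest of the 10 pairs among the 5 genes. The libraries share the layer and the replicate difference, and r is given as a description. Edar, Edaradd and Eda2r each were higher in replicate 2 than in replicate 1 in 7 of 8 groups, whereas Eda was so in 2 and Tnfrsf19 in 4.

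The ligand gene Eda was the 1 member with no called average layer difference, at 0.36 log2 (SE 0.14, 95% interval 0.05 to 0.67, adjusted p = 0.0547). With embryo batch as a block the value was also 0.36 and the adjusted p was 0.0144, and without ectoderm E11.5 replicate 1 it was 0.24 with an adjusted p of 0.192. It was called, with adjusted p between 0.0343 and 0.0448, without ectoderm E11.5 replicate 2 (0.42), ectoderm E12.5 replicate 2 (0.42) or mesoderm E11.5 replicate 1 (0.43). In ectoderm Eda stood at 4.11 and 4.58 CPM at E9.5, 5.41 and 6.87 CPM at E10.5, 7.29 and 5.03 CPM at E11.5, and 11.99 and 8.77 CPM at E12.5. Both E12.5 libraries were above the other 6. In mesoderm it stood at 7.498 and 7.07 CPM at E9.5, 3.42 and 2.93 CPM at E10.5, 5.05 and 3.66 CPM at E11.5, and 6.62 and 5.79 CPM at E12.5. The 2 libraries of E9.5 were the highest of mesoderm and those of E10.5 the lowest.

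At E9.5 both mesoderm libraries therefore lay above both ectoderm libraries in Eda, and at E10.5 and E12.5 both ectoderm libraries lay above both of mesoderm. The ectoderm minus mesoderm difference was −0.74 log2 at E9.5 (SE 0.28, adjusted p = 0.0907, and 0.0221 with the embryo batch block). It was 0.95 log2 at E10.5 (SE 0.29, adjusted p = 0.0291), 0.50 at E11.5 (SE 0.28, adjusted p = 0.28, and 0.15 without ectoderm E11.5 replicate 1) and 0.74 at E12.5 (SE 0.28, adjusted p = 0.0741, and 0.0137 with the block). The call at E10.5 was lost without ectoderm E10.5 replicate 2 (0.76), mesoderm E10.5 replicate 1 (1.07) or mesoderm E10.5 replicate 2 (0.84), with adjusted p between 0.0893 and 0.185. It was also lost without the filter on low counts (0.86, adjusted p = 0.191) and with only the groups compared in the fit (0.96, adjusted p = 0.102).

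From E9.5 to E12.5 Eda rose in ectoderm by 1.25 log2 (SE 0.28, 2.38-fold, adjusted p = 0.0121). The call was lost without ectoderm E9.5 replicate 1 (1.18, adjusted p = 0.0933), ectoderm E9.5 replicate 2 (1.33, adjusted p = 0.0712) or ectoderm E12.5 replicate 1 (1.005, adjusted p = 0.106). In mesoderm Eda fell from E9.5 to E10.5 by 1.19 log2 (SE 0.28, adjusted p = 0.023), and its E12.5 level was −0.23 log2 from that of E9.5 (SE 0.28, 95% interval −0.84 to 0.38, adjusted p = 0.598). The mesoderm fall was not called when any 1 of the 4 libraries of E9.5 and E10.5 mesoderm was left out, with values from −1.31 to −1.09 and adjusted p from 0.0757 to 0.152. Nor was it called without the filter (−1.13, adjusted p = 0.0817) or with only the groups compared in the fit (−1.18, adjusted p = 0.0886). The ectoderm change minus the mesoderm change was 1.48 log2 (SE 0.40, adjusted p = 0.0429). This difference was close to the threshold, and it held without ectoderm E11.5 replicates 1 and 2 and mesoderm E11.5 replicates 1 and 2, each left out alone. In the other 12 of 16 leave-outs it was not called, with adjusted p up to 0.175 and values from 1.23 to 1.69.

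Eda2r, the receptor of the short ligand form, was higher in ectoderm by 2.08 log2 on average (SE 0.25, 4.23-fold, adjusted p = 3.05e-05). Unlike for Edar, the difference lay in a narrow band, between 1.89 and 2.24 log2 at the 4 stages, with adjusted p between 0.00613 and 0.019. In ectoderm it stood at 8.23 and 9.65 CPM at E9.5, 4.97 and 7.41 CPM at E10.5, 1.79 and 5.36 CPM at E11.5, and 1.97 and 1.98 CPM at E12.5. The library that stood apart again gave the low value of E11.5. In mesoderm it stood at 1.77 and 2.03 CPM at E9.5, 1.04 and 1.91 CPM at E10.5, 0.84 and 1.07 CPM at E11.5, and 0.48 and 0.43 CPM at E12.5. These mesoderm values rest on 7 to 37 counts per library, the thinnest of the 5 genes.

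Eda2r fell from E9.5 to E12.5 in both layers, by 2.18 log2 in ectoderm (SE 0.48, adjusted p = 0.0105) and by 2.04 log2 in mesoderm (SE 0.53, adjusted p = 0.0141). The difference between these changes was −0.14 log2 (SE 0.78, 95% interval −1.86 to 1.58, adjusted p = 0.984), an interval that leaves room for unequal falls. The ectoderm call was lost without ectoderm E9.5 replicate 2 (−2.06), ectoderm E12.5 replicate 1 (−2.18) or ectoderm E12.5 replicate 2 (−2.18), with adjusted p between 0.0629 and 0.0754. The mesoderm call was lost without mesoderm E9.5 replicate 2 (−1.94), mesoderm E12.5 replicate 1 (−2.13) or mesoderm E12.5 replicate 2 (−1.96), with adjusted p between 0.0537 and 0.072. At E11.5 the layer difference was lost without ectoderm E11.5 replicate 2 (0.92, adjusted p = 0.27), mesoderm E11.5 replicate 1 (1.73) or mesoderm E11.5 replicate 2 (2.06), and without ectoderm E11.5 replicate 1 it was 2.43 with an adjusted p of 0.00213. At the other stages it was lost without ectoderm E10.5 replicate 2 (1.78), mesoderm E10.5 replicate 1 (1.69), mesoderm E9.5 replicate 1 (2.14), mesoderm E12.5 replicate 1 (2.19) or mesoderm E12.5 replicate 2 (2.02).

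Tnfrsf19, the receptor without a settled ligand, moved in opposite directions in the layers. In ectoderm it stood at 158.9 and 151.5 CPM at E9.5, 207 and 183 CPM at E10.5, 206 and 184 CPM at E11.5, and 374 and 299.8 CPM at E12.5. In mesoderm it stood at 68.8 and 74.9 CPM at E9.5, 38.7 and 44.9 CPM at E10.5, 45.2 and 48.8 CPM at E11.5, and 22.1 and 34.4 CPM at E12.5. The E12.5 ectoderm libraries were the highest of all 16 and the E12.5 mesoderm libraries the lowest.

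From E9.5 to E12.5 Tnfrsf19 rose in ectoderm by 1.12 log2 (SE 0.20, 2.17-fold, adjusted p = 0.00311) and fell in mesoderm by 1.35 log2 (SE 0.20, adjusted p = 0.000661). The ectoderm change minus the mesoderm change was 2.47 log2 (SE 0.29, adjusted p = 0.000525). All 3 calls held in each of the 16 leave-outs. Of the 15501 tested genes, 61 (0.394%) were called higher at E12.5 in ectoderm and lower in mesoderm. The layer difference grew from 1.11 log2 at E9.5 (SE 0.20, 2.16-fold) through 2.22 at E10.5 and 2.05 at E11.5 to 3.58 at E12.5 (SE 0.22, 11.9-fold), called at each stage. The average was 2.24 log2 (SE 0.10, adjusted p = 1.08e-08).

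The mesoderm step from E9.5 to E10.5 lowered Tnfrsf19 by 0.78 log2 (SE 0.20, adjusted p = 0.0321). That call was lost in 7 leave-outs, with values from −0.89 to −0.68. They were mesoderm E9.5 replicates 1 (−0.84) and 2 (−0.72), mesoderm E10.5 replicates 1 (−0.68) and 2 (−0.89), ectoderm E9.5 replicates 1 (−0.78) and 2 (−0.78) and ectoderm E11.5 replicate 1 (−0.76). It was also lost with total counts in place of TMM scaling (−0.68, adjusted p = 0.0908) and with only the groups compared in the fit (−0.77, adjusted p = 0.12). From E11.5 to E12.5 the gene differed by 0.79 log2 in ectoderm (SE 0.20, adjusted p = 0.138) and by −0.74 log2 in mesoderm (SE 0.20, adjusted p = 0.179). With replicate number and RNA kit as a block the adjusted p values of these steps were 0.0232 and 0.0351, and with DESeq2 they were 0.0135 and 0.0381. Without mesoderm E12.5 replicate 2 the mesoderm step was −1.09 log2 with an adjusted p of 0.042.

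**Figure D4:**
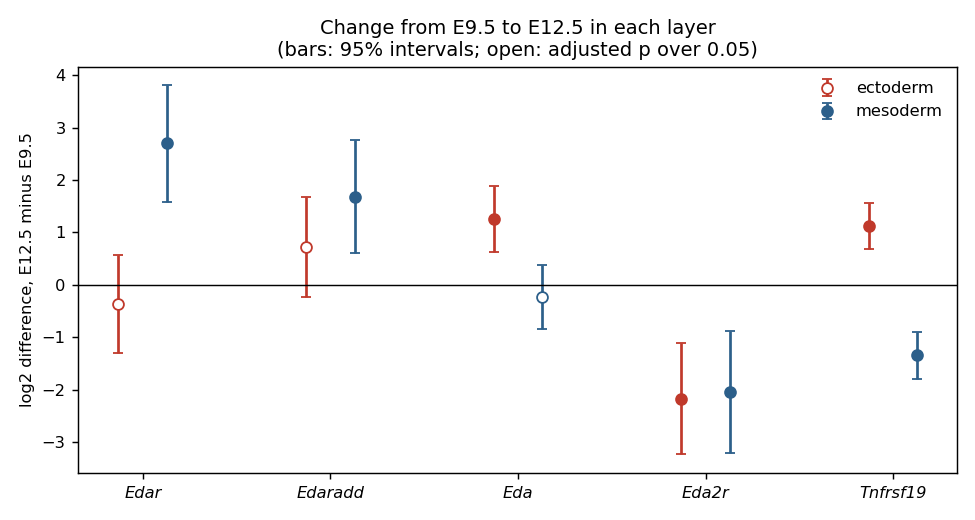
Log2 change from E9.5 to E12.5 of each gene in ectoderm (red) and mesoderm (blue), points from the edgeR fit with 95% intervals, filled where the adjusted p is under 0.05. Tnfrsf19 rises by 1.12 in ectoderm and falls by 1.35 in mesoderm, Edar is at −0.36 in ectoderm and 2.70 in mesoderm, and Eda2r falls in both.

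The counts of called members stand beside those of all tested genes. At E9.5, 4 of the 5 genes were called higher in ectoderm, against 13.1% of all genes. At E10.5 all 5 were, against 16.2%. At E11.5 it was 4 of the 5, against 12.9%, and at E12.5 again 4, against 13.3%. From E9.5 to E12.5 in ectoderm 9.1% of genes rose and 7% fell, and 2 of the 5 rose and 1 fell. In mesoderm 17% rose and 12.6% fell, and 2 of the 5 rose and 2 fell. The difference between the layers in this change was called in 8.27% of genes and in 3 of the 5. In the mesoderm step from E9.5 to E10.5, 5.3% of genes rose and 3.95% fell, and 1 of the 5 rose and 2 fell.

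No gene of the 5 was called by edgeR in any of the 3 ectoderm steps of 1 day, where 4.14%, 0.00645% and 0.426% of all genes were called in turn. At an unadjusted p under 0.05 the counts were 0, 0 and 2, against 2406, 1209 and 1367 of the 15501 tested genes. DESeq2 called 1 of the 5 in the last step, Tnfrsf19, and its share over all genes is not given here. In the mesoderm steps to E11.5 and E12.5 edgeR called none of the 5, against 0.394% and 0.31% of all genes. At an unadjusted p under 0.05 the counts were 0 and 1, against 1488 and 1544 of the 15501 tested genes. DESeq2 again called Tnfrsf19 in the last step.

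Levels of different genes were compared per transcript length, as the FPKM that the authors deposited from Cufflinks. Tnfrsf19 was the highest of the 5 in each of the 8 groups, at 32.6 ± 2.07 FPKM (SD, n = 2) in ectoderm of E9.5 and 73.2 ± 9.74 FPKM in ectoderm of E12.5. Edar was the next in ectoderm at all stages, from 12.52 to 16.3 FPKM in the group means, followed by Edaradd, from 3.18 to 5.72 FPKM. The last places changed hands. At E9.5 Eda2r, at 1.83 ± 0.10 FPKM (SD, n = 2), lay above Eda, at 0.71 ± 0.05 FPKM. At E12.5 Eda, at 1.71 ± 0.28 FPKM, lay above Eda2r, at 0.38 ± 0.05 FPKM, and at E10.5 and E11.5 the libraries of these genes overlapped.

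In mesoderm of E9.5 the order was Tnfrsf19 at 14.4 FPKM, Eda at 1.14, Eda2r at 0.33, Edar at 0.27 and Edaradd at 0.21, with no overlap between neighbours. From E10.5 on it was Tnfrsf19, Edar, Eda, Edaradd and Eda2r, and only Edaradd and Eda2r at E10.5 overlapped. Edar thus stood at 3.60, 2.75 and 2.21 FPKM in mesoderm at the later stages, above Eda in each of these libraries. CPM per kilobase of merged exons gave the same order of the 5 genes in all 8 groups.

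**Figure D5:**
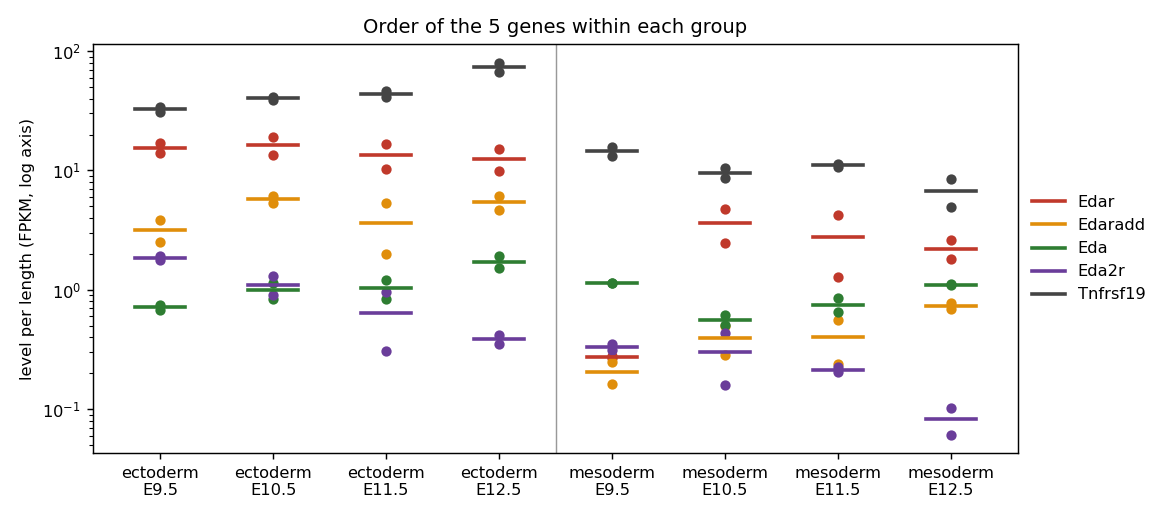
Level per length (FPKM, log axis) of the 5 genes in each group, with points for the 2 libraries and bars for the means. Tnfrsf19 is on top in all 8 groups, and Edar is next in 7 of them, all but mesoderm of E9.5.

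The other genes of the pathway were read from lists by role. Their counts stand against those of all tested genes, of which 24.3% were higher and 21.4% lower in ectoderm on average, and of which 9.1% rose and 7% fell in ectoderm from E9.5 to E12.5. Among 13 tested signal transducers, which carry the signal from the receptors to NF-kB, 3 were higher and 1 lower in ectoderm on average, with a median of 0.01 log2, which is also the median of all tested genes. The 3 of 13 are near the share of all genes. Without ectoderm E11.5 replicate 1, 2 were higher and 2 lower, as Ikbkb lost its call (adjusted p = 0.079) and Traf2, a receptor-binding adapter, gained one as lower (−0.29, adjusted p = 0.0485). Ikbkg, the regulatory subunit of the IkB kinase, was higher by 0.47 log2 (SE 0.08, adjusted p = 0.000408) and Tab3, an adapter of the Tak1 kinase, by 0.88 (SE 0.24, adjusted p = 0.0108). The call of Ikbkb, a catalytic subunit of that kinase, at 0.29 log2 (adjusted p = 0.0387), was lost in 12 of the 16 leave-outs, with values from 0.22 to 0.37 log2, also with RLE size factors (0.26), with total counts (0.25) and without the filter (0.24). Traf5, of the same family as Traf2, was lower by 1.91 log2 (SE 0.20, adjusted p = 8.72e-06). No transducer was called in ectoderm from E9.5 to E12.5. At an unadjusted p under 0.05 there were 3 of the 13, against 4325 of all 15501 tested genes.

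Of 12 NF-kB factors and inhibitors, 1 was higher and 3 lower in ectoderm, with a median of −0.14 log2. The 3 of 12 lower are near the share of all genes. Nfkb1, which encodes the p50 subunit, was higher by 0.42 log2 (SE 0.10). Relb, a subunit of the non-canonical branch, was lower by 1.65 log2 (SE 0.23), and Nfkbie, an IkB protein, by 1.88 log2 (SE 0.21). Nfkb2 was lower by 0.39 log2 (SE 0.11). From E9.5 to E12.5 in ectoderm 2 of the 12 rose and none fell. They were the inhibitors Tnfaip3, from 2.99 ± 0.20 to 9.02 ± 0.40 CPM (SD, n = 2, adjusted p = 0.0106 by edgeR), and Nfkbia, from 13.8 ± 2.18 to 29.2 ± 11.3 CPM (adjusted p = 0.0327 by edgeR). Both also rose in mesoderm, by 1.02 log2 for Tnfaip3 (adjusted p = 0.0456) and 1.79 log2 for Nfkbia (adjusted p = 0.00146). Both are known targets of NF-kB as well as its inhibitors.

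Of 18 genes described downstream of Edar in mouse skin appendages, 14 passed the filter. Of these, 8 were higher and 4 lower in ectoderm on average, with a median of 1.14 log2, also with genes that had a group without counts set to the floor of 3 counts over the group. The count of higher genes exceeds the share of all genes, and 4 of 14 lower is not far from it. Wnt10b, a WNT ligand, stood between 5.91 and 98.6 CPM in ectoderm and at or under 0.48 CPM in mesoderm. Wnt10a, its close relative, stood between 8.69 and 43.8 CPM in ectoderm and at or under 0.79 CPM in mesoderm. With no count in mesoderm of E9.5, Wnt10a was at least 124-fold higher in ectoderm there. Foxi3, a transcription factor of placodes, stood between 0.73 and 5.03 CPM in ectoderm and at or under 0.17 CPM in mesoderm.

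The list also held genes that were lower in ectoderm. Madcam1, a cell adhesion molecule, stood between 0.25 and 5.01 CPM in mesoderm and at or under 0.21 CPM in ectoderm. Shh, the signal of the posterior limb mesenchyme, reached 47.3 and 50.5 CPM in mesoderm of E10.5 and at most 2.65 CPM in ectoderm. At E12.5 Shh had no count in ectoderm and 1 and 3 counts in mesoderm. Its fitted average difference of −3.74 log2 (adjusted p = 0.00535 by edgeR) therefore includes a ratio to a group without counts, whose size was not measured. The call of this average was lost without mesoderm E12.5 replicate 2 (−3.46). From E9.5 to E12.5 in ectoderm 4 of the 14 rose and 1 fell. Icam1, an adhesion molecule and NF-kB target, rose from 2.79 ± 0.53 to 20.4 ± 5.58 CPM (SD, n = 2, adjusted p = 0.00019 by edgeR), and Cx3cl1, a chemokine, from 1.51 ± 0.34 to 10.2 ± 5.11 CPM (adjusted p = 0.0036 by edgeR). Wnt10b rose by 2.601 log2 (SE 0.46, adjusted p = 0.00295), although its E10.5 libraries, at 64.3 and 98.6 CPM, were the highest. Dkk4, a WNT inhibitor, fell from 4.96 and 3.56 CPM at E9.5 to 0.27 CPM and 0 at E12.5 (adjusted p = 0.0151 by edgeR). On average Cx3cl1 was lower in ectoderm, at −1.03 log2 (adjusted p = 0.00336 by edgeR). It also rose in mesoderm, by 1.83 log2 (adjusted p = 0.0121 by edgeR), where the change of Icam1 was 0.35 (adjusted p = 0.437).

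Of 10 upstream inputs, 7 were higher and 2 lower in ectoderm on average, with a median of 0.81 log2. The 2 of 10 lower are near the share of all genes. Without ectoderm E11.5 replicate 1, 6 were higher, since Bmpr1a, a BMP receptor gene, went from 0.34 log2 (adjusted p = 0.034) to 0.32 (adjusted p = 0.0574). Trp63 was higher by 7.70 log2 (SE 0.19) and Dlx3, a homeobox gene of epidermis and placodes, by 5.82 (SE 0.34). Msx2 was higher by 1.70 log2 (SE 0.20) and its relative Msx1 lower by 1.04 (SE 0.20). These averages hid a change with stage. The mean of Msx2 was 232.8 CPM in ectoderm and 33.8 in mesoderm at E9.5, and 335.5 and 270 at E12.5, with overlapping libraries. That of Msx1 was 205.1 and 229.6 CPM at E9.5, and 218.4 and 954.7 at E12.5. Lef1, a nuclear partner of beta-catenin, was lower by 0.49 log2 (SE 0.13). In ectoderm, from E9.5 to E12.5, Tcf7, a relative of Lef1, fell by 2.28 log2 (SE 0.23, from 403 ± 4.996 to 83.0 ± 14.4 CPM, adjusted p = 8.86e-05 by edgeR) and Lef1 by 0.89 (SE 0.25, adjusted p = 0.0336). Furin, a protease of the family that frees ectodysplasin, rose by 0.65 log2 (SE 0.20, adjusted p = 0.0456). In mesoderm the change of Tcf7 was −2.13 log2 (adjusted p = 9.73e-05 by edgeR), a fall as in ectoderm. Lef1 was at −0.32 there (adjusted p = 0.379) and Furin at 0.39 (adjusted p = 0.168). Inhba, which encodes an activin subunit, had no count in ectoderm of E9.5 and stood at 1.51 and 1.39 CPM at E12.5, at least 12.7-fold higher. In mesoderm it also had no count at E9.5 and reached 30.9 and 28.1 CPM at E12.5, where the median mesenchyme marker in ectoderm of the same embryos was at 4.06 and 4.43% of mesoderm. The part of these markers in the ectoderm value of Inhba was not tested. Without ectoderm E11.5 replicate 1, Furin was no longer called as rising (0.67, adjusted p = 0.0524), which left 1 of the 10.

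Of 25 other TNF receptors, 18 passed the filter, and 4 were higher and 6 lower in ectoderm, with a median of −0.26 log2. The 4 of 18 higher are near the share of all genes. Without ectoderm E11.5 replicate 1, 19 passed the filter, with 5 higher and 7 lower, as Tnfrsf18 (adjusted p = 0.0423) joined the higher and Ngfr (−1.13 log2, adjusted p = 0.00204) the lower. Tnfrsf12a, the receptor of Tweak, was higher by 2.42 log2 (SE 0.15), at 5.59 to 9.34 CPM against 0.71 to 2.79. Fas, a death receptor, stood between 0.30 and 1.45 CPM in ectoderm and at or under 0.62 CPM in mesoderm. Tnfrsf13c, also called higher, stood between 0.11 and 1.74 CPM in ectoderm and at or under 0.24 CPM in mesoderm. Among the lower, Tnfrsf14 stood between 0.24 and 2.33 CPM in mesoderm and at or under 0.20 CPM in ectoderm. Cd40 stood between 3.66 and 18.8 CPM in mesoderm and between 0.66 and 2.91 CPM in ectoderm. Tnfrsf1b stood between 1.91 and 6.21 CPM in mesoderm and at or under 1.15 CPM in ectoderm. In ectoderm 1 of the 18 changed from E9.5 to E12.5, the neurotrophin receptor gene Ngfr, which fell by 3.63 log2 (SE 0.71, adjusted p = 0.00514), from 157 ± 8.96 to 12.6 ± 5.36 CPM (SD, n = 2). Of 17 other TNF ligands 3 passed the filter and edgeR called none between the layers on average. At an unadjusted p under 0.05 there was 1 of the 3, against 8008 of all 15501 tested genes. Without ectoderm E11.5 replicate 1, 4 passed and 1 was called lower in ectoderm, Tnfsf14 (adjusted p = 0.00078 by edgeR).

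The genes most like each member were taken as the 5 highest Pearson correlations of log2 CPM over the 16 libraries. They were Sema4d (0.962), Mtmr7, Vwa2, Tpd52 and Plekhg3 for Edar, and Etv3 (0.99), Bcar3, Inafm2, Ifnlr1 and Ccdc88c for Edaradd. For Tnfrsf19 they were Art4 (0.984), Slc7a3, Tom1l1, Tmem123 and Traf3ip2, and for Eda2r Hapln1 (0.958), Cdk18, Qsox2, Rhou and Cpne2. For Eda they were Kcnf1 (0.883), Slco3a1, Alcam, Baalc and Ydjc. With Spearman's rho 3 of the 5 stayed for Tnfrsf19, 2 each for Eda and Edaradd, 1 for Eda2r and none for Edar.

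Exon bins, the pieces of exons between all annotated borders, gave a view of the isoforms. The difference between the ligand forms lies at the end of 1 coding exon of Eda, where the 6 bases of the thirteenth bin (chrX:100395144-100395149, mm10, plus strand) are kept in the form that binds Edar and skipped in the form that binds Eda2r. The exon end is shown with those bases in capitals, read from the GENCODE M21 transcripts.
Eda exon end, chrX:100395108-100395149: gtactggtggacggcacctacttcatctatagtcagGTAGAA
Over the 16 libraries the 6 bases held 7 counts and the 36 bases before them held 38. They are part of 3 of the 9 coding transcripts. How reads over several bins were assigned is not stated, so no share of the forms is drawn from these counts.

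The use of a bin, its share of all bin counts of its gene, was tested in 12203 genes with edgeR's diffSpliceDGE. Between the layers 1.61% of these genes were called, and none of the 5. From E9.5 to E12.5 in ectoderm 0.0328% were called, and none of the 5. Of the tested bins, 3 of 20 were in Eda, 12 of 12 in Edar, 4 of 11 in Eda2r, 6 of 6 in Edaradd and 12 of 16 in Tnfrsf19. At an unadjusted p under 0.05 none of these bins differed between the layers, and 2 did between the stages in ectoderm, both in Tnfrsf19, with a smallest unadjusted p of 0.00696 and an adjusted p of 1.

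Tnfrsf19 has an outer first exon (chr14:61046115-61046490, mm10, minus strand) and an inner one (chr14:61037850-61037950). Of the counts in both, the outer first exon took between 90.9 and 98.9% in the 8 ectoderm libraries. In mesoderm it took 70.4% (exact binomial 95% interval 56.4 to 82.0) and 81.8% (69.1 to 90.9) at E9.5 and between 94.7 and 100% in the 6 later libraries. These shares rest on 34 to 486 bin counts per library. Bin counts exceeded gene counts (15641618 against 10005867 in ectoderm E9.5 replicate 1), so 1 read may count in more than 1 bin. The intervals cover counting error only, treat each count as a separate read, and may be too narrow even for that. The inner bins were too low for the test. The shares are also not per length, with outer bins of 355 and 21 bases and inner bins of 42 and 59. In mesoderm of E9.5 the outer first exon held 38 and 45 counts and the inner 16 and 10. No order of the starts per base is drawn from them. The windows of RefSeq promoters (GRCm38.p6, 250 bases before to 50 after a start) are shown because the outer first exon held more counts in all libraries. The outer window lies wholly upstream of the GENCODE exon. Capitals mark matches of CTTTGA, a TCF/LEF motif, on either strand.
Outer start of Tnfrsf19, chr14:61046806-61047105, minus strand: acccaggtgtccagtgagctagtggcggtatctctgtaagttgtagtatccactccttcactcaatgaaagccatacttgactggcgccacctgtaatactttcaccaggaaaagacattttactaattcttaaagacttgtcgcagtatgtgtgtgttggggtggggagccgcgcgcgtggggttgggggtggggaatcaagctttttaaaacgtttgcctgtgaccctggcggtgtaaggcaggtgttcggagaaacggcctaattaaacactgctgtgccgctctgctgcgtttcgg
Inner start of Tnfrsf19, chr14:61037938-61038237, minus strand: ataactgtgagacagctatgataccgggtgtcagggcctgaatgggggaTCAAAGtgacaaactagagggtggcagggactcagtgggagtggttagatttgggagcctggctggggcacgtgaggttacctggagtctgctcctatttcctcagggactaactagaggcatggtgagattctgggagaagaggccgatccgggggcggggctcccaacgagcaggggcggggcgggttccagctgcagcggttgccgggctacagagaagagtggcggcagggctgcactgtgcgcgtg
The inner window held 1 match of CTTTGA and the outer none, and 16% of 32851 mouse windows held at least 1. The inner window also held 3 matches of the Sp1 motif GGGCGG, found in 35.7% of windows. The outer window held no match of the 5 motifs searched.

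The windows of Edar and Edaradd are shown since their r over all libraries was the highest among the members. That r does not describe the course over the stages. From E9.5 to E10.5 in mesoderm Edar rose by 3.48 log2, and the difference of Edaradd was 0.80 (adjusted p = 0.397 by edgeR). Capitals mark CTTTGA and the NF-kB motif GGGNNNNNCC, on either strand.
Edar, chr10:58675647-58675946, minus strand: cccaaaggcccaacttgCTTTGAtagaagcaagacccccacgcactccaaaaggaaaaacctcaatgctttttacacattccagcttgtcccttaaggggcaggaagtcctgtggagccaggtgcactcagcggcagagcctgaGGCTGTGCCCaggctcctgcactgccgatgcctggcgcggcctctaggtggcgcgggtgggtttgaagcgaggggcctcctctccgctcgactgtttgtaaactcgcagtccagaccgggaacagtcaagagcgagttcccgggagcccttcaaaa
Edaradd, chr13:12520401-12520700, minus strand: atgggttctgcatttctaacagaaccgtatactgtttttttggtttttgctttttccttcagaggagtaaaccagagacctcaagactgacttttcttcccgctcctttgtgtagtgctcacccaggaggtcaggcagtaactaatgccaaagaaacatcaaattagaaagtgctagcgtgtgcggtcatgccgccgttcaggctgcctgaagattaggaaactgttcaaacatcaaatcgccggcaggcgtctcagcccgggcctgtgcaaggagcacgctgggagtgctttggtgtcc
The Edar window held 1 match of each motif and that of Edaradd none. GGGNNNNNCC was found in 50.8% of all windows, and 3 matches stood in that of Eda and 2 in that of Eda2r. The 2 of Eda2r overlap each other on opposite strands, in a single stretch. The Eda window had a GC content of 74.3%, higher than 95.6% of windows, and 7 matches of GGGCGG. The TATA box letters TATAAA, in 13.6% of windows, was found in Eda2r alone of the 5, and CATGNNNNNNCATG, a pair of p63 half-sites in 0.712% of windows, in none. A match is a description of letters and not a site.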

How the data were processed

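RNA was measured by stranded poly(A) sequencing, per the labels' protocols. The submitters' processing notes name bedtools 2.27.1, Cufflinks 2.2.1, cutadapt 1.16 and STAR 2.6.0c, and build mm10. The authors deposited whole-number counts per gene and per exon bin, and FPKM values from Cufflinks. The counting tools, and whether reads were counted by strand, are not given in the sources used here.

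Counts were fitted with the quasi-likelihood test of edgeR 4.0.16 (R 4.3.3, TMM scaling, filterByExpr, 1 mean for each of 8 groups), with Benjamini-Hochberg adjustment over 15501 genes and calls at an adjusted p under 0.05. CPM uses TMM-scaled totals. The prior count for correlations was 2. With 2 libraries a group, all comparisons share 1 estimate of the spread. Exon bins (158482 tested) were fitted the same way. Bins were rebuilt from GENCODE M21, and their number matched in 51401 of 53357 genes (96.3%), the 5 members among them. Fits were tested on simulated data. Alternatives were DESeq2 1.42.0, RLE factors, total counts, no filter, fewer groups, blocks and leave-outs.

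The labels state that same-numbered ectoderm and mesoderm of a stage share embryos, and that the replicate number marks the RNA kit. Deviations of such pairs correlated with r between 0.546 and 0.666 across genes, and those of different stages of 1 layer between 0.427 and 0.583. Blocked values stand beside a result where they change a call. The lowest r between the libraries of a group was 0.9735. The members and the gene lists were chosen with earlier results of these data known. From each list the text names up to 3 genes per direction with the largest called difference, in the layer average and in ectoderm from E9.5 to E12.5. Genes named because their call changes without ectoderm E11.5 replicate 1 were chosen after their values were seen.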

Additional observations from a re-analysis of the deposited data

Results flagged for a closer look

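The E9.5-to-E12.5 change differed between ectoderm and mesoderm for 3 of the 5 genes, by the interaction term of the edgeR fit. For Tnfrsf19 the ectoderm change exceeded the mesoderm change by 2.47 log2 (adjusted p = 0.000525), with a rise in ectoderm and a fall in mesoderm. For Edar the difference was −3.06 log2 (adjusted p = 0.0156), as its mesoderm level rose and its ectoderm change was −0.36 log2. For Eda it was 1.48 log2 (adjusted p = 0.0429). Its ectoderm change was 1.25 log2, and its mesoderm change of −0.23 log2 was not called (adjusted p = 0.598). Of all tested genes 8.27% were called in this comparison.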

How the results depend on the processing

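Of 435 values of the main results of the 5 genes under alternatives, 399 kept their direction and their side of the threshold, 31 lost a call, 5 gained one and none reversed. Without the filter on low counts the layer-by-stage difference of Eda was 1.44 log2 (adjusted p = 0.151), and with only the groups compared in the fit it was 1.47 (adjusted p = 0.0723). In that smaller fit the ectoderm rise of Eda was 1.27 log2 (adjusted p = 0.0557), and the layer differences of Edar and Eda2r at E11.5 were 2.39 (adjusted p = 0.0549) and 1.87 (adjusted p = 0.16). With embryo batch as a replicate block the average layer difference of Eda was 0.36 log2 (adjusted p = 0.0144) and the layer-by-stage difference of Edaradd −0.95 (adjusted p = 0.0378), and the block changed no other main call. When each library was left out in turn, the values ran from 1.005 to 1.46 log2 for the ectoderm change of Eda, from 0.24 to 0.43 for its layer average and from 1.23 to 1.69 for its layer-by-stage difference. They ran from −2.29 to −2.06 for the ectoderm change of Eda2r, from −2.14 to −1.94 for its mesoderm change, from 1.44 to 1.94 for the mesoderm change of Edaradd and from −3.32 to −2.84 for the layer-by-stage difference of Edar. Where a left-out library leaves a group with 1 library, that library is assumed to vary like the other groups. No exon bin of the 5 genes was called with every bin of 10 or more counts tested, with the embryo batch block or in the 16 leave-outs. Eda2r in mesoderm, at 7 to 37 counts, and the inner first exon of Tnfrsf19 are limited by depth.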
